A study of Homo sapiens with 10 samples.

Results

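Aldehyde dehydrogenases are NAD(P)-dependent enzymes that oxidise aldehydes to carboxylic acids, and 10 of their genes are described here in the sorted populations of SW480, an established line from a human colorectal adenocarcinoma. The members were taken by gene symbol from the count tables: ALDH1A1, ALDH1A2, ALDH1A3, ALDH1B1, ALDH2, ALDH3A1, ALDH3A2, ALDH7A1, ALDH9A1 and ALDH18A1, that is 10 of the 26485 genes listed. The compared groups were 5 libraries of cells positive for the surface receptor ROBO1 (ROBO1pos, labelled SW480-CBC) and 5 libraries of ROBO1-negative cells (ROBO1neg, labelled SW480-RSC). Both groups came from the same line, labelled wild type and grown in serum-containing medium with no treatment named, were separated by flow sorting with an antibody to ROBO1, and were profiled by sequencing of polyadenylated RNA. No label ties a replicate to a culture of its own. The p-values therefore weigh the difference against library-to-library spread that may be purely technical. An SW480 culture is a single tumour-derived line, and a sort on 1 surface protein can leave a mixture on either side of the gate.

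The family divides by substrate. ALDH1A1, ALDH1A2 and ALDH1A3 are cytosolic retinal dehydrogenases, which make retinoic acid, the ligand of the RAR nuclear receptors, and ALDH1A1 and ALDH1A3 are the isoforms most often tied to the aldehyde dehydrogenase activity by which stem-like cells of normal and cancerous colon are isolated. ALDH1B1 and ALDH2 are mitochondrial enzymes that clear acetaldehyde and lipid-derived aldehydes. ALDH3A1 and ALDH3A2 act on aromatic and on long-chain fatty aldehydes, ALDH7A1 works in lysine breakdown, ALDH9A1 oxidises aminobutyraldehyde and a carnitine precursor, and ALDH18A1 makes the pyrroline-5-carboxylate from which proline and ornithine are built.

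Library facts were as follows. Gene totals ran from 23228686 to 29539100 counts, so that 1 count-per-million (CPM, scaled by TMM) stood for 23.0 to 29.3 counts. ROBO1 itself, which checks the labels, was between 400.04 and 462 CPM in ROBO1pos and between 5.63 and 9.04 CPM in ROBO1neg. Libraries of a group correlated at 0.989 to 0.996 over log2 CPM of tested genes, and libraries of different groups at 0.821 to 0.844, a description over genes that are not independent. Of 9 tested colorectal epithelial markers 4 were higher and 3 lower in ROBO1pos and 2 did not pass. VIL1 was at 503 CPM in ROBO1pos and 27.7 CPM in ROBO1neg, CDH17 at 6.94 and 0.127 CPM, and EPCAM at 679.9 and 303 CPM. KRT8 was at 2164.9 and 3755.0 CPM, KRT18 at 2342.6 and 4095.4 CPM, and CDH1 at 34.2 and 44.4 CPM. CDX2 averaged 28.8 and 30.04 CPM, CDX1 (0.744 and 0.0306 CPM) and LGALS4 (0.534 and 0.461 CPM) stayed low, and KRT20 was at 0. The summed CPM of markers of leukocytes ran from 3.10 to 4.08 in ROBO1pos and from 2.56 to 4.05 in ROBO1neg, of erythroid cells from 0.323 to 0.697 and from 0.0682 to 0.174, and of endothelium from 0.504 to 0.889 and from 2.34 to 4.25. Fibroblast markers summed to between 10.1 and 13.7 CPM in ROBO1pos and between 13.99 and 22.5 CPM in ROBO1neg, with COL3A1 at 0, and hepatocyte markers to between 3.85 and 6.66 CPM and between 0.144 and 0.258 CPM, nearly all of it ALB, with TTR at 0. The sums hide opposite members. LUM (3.73 and 0.0309 CPM) and COL1A2 (1.97 and 0.353 CPM) were higher in ROBO1pos, and COL1A1 (4.87 and 14.3 CPM) and PDGFRB (1.15 and 2.94 CPM) lower. Among endothelial markers VWF was lower in ROBO1pos (0.449 and 3.20 CPM). CDH5 (0.209 and 0.0451 CPM), KDR (0.0690 and 0.00861 CPM) and PECAM1 (0.0229 and 0.00861 CPM) averaged more there but were too low to be tested. The part of these levels in the results below was not tested. In sorted bulk samples, fewer cells that use a gene and less of its RNA per cell cannot be told apart.

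The sequences around the starts of the 3 retinal dehydrogenase genes and of ALDH18A1 are shown because these genes span the family's extremes in this line, from no more than 3 counts in any library to the highest levels. Each runs from 250 bases before to 50 bases after the gene start, 5′ to 3′ on the gene's strand, from RefSeq on GRCh38.p14, with capitals marking GCGTG or its reverse complement CACGC (the core of aryl hydrocarbon receptor sites) and the E-box CACGTG.
ALDH1A1 (chr9:72953004-72953303, minus strand): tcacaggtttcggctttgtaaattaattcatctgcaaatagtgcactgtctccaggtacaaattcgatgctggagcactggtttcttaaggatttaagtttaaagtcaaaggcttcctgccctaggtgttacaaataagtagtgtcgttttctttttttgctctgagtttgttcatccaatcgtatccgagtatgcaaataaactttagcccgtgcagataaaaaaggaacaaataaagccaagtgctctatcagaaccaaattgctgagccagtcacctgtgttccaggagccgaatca
ALDH1A2 (chr15:58065662-58065961, minus strand): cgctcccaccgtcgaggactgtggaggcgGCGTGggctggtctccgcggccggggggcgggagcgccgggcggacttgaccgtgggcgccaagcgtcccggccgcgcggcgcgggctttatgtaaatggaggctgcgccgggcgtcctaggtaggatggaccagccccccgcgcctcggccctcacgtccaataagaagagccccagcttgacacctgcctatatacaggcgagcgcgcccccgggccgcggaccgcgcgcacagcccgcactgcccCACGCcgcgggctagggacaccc
ALDH1A3 (chr15:100879581-100879880, plus strand): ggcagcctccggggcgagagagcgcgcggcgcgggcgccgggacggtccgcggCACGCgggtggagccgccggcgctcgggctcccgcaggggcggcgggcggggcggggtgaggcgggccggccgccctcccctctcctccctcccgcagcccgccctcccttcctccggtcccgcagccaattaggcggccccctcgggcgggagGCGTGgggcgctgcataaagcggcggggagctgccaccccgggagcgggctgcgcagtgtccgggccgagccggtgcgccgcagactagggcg
ALDH18A1 (chr10:95656662-95656961, minus strand): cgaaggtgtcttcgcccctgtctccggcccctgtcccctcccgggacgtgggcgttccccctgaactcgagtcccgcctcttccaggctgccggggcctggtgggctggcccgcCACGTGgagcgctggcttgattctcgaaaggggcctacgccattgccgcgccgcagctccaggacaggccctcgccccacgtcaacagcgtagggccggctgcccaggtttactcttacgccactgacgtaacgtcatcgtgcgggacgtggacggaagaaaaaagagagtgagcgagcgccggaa

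The table gives ALDH1A2 a second start (chr15:58013974-58014273, minus strand), not printed, with 42.7% GC and no match to either motif. The printed starts differ in base composition. GC made up 40.3% of the ALDH1A1 sequence, 74.0% of ALDH1A2, 81.7% of ALDH1A3 and 67.0% of ALDH18A1, beside a median of 58.7% over the 35116 promoters of the same length in the table. The letters GCGTG or CACGC started at -221 and 28 in ALDH1A2 and at -197 and -43 in ALDH1A3, counted from the gene start. CACGTG was found once in ALDH18A1, at -136. ALDH3A2, not printed, held matches too at its start chr17:19648501-19648800, with GCGTG at -76 and 43 and CACGTG at -47. Among the 8 members with an entry, GCGTG or CACGC was thus in 3 and CACGTG in 2. Both motifs were searched on both strands and do not share letters in these sequences. Of all promoters, 36.5% held GCGTG or CACGC and 7.26% held CACGTG. The TATA box letters TATAAA or TTTATA were in 11.5% of all promoters and in 0 of the 8 members with an entry in the table. These are matches of letters in a window and say nothing about binding. ALDH2 and ALDH3A1 were the members with no entry.

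Of the 10 members, 9 had enough reads to be tested and all 9 passed, 6 higher and 3 lower in ROBO1pos. This is a description against a background in which 82.0% of the 14932 genes tested passed the same test, 41.6% as higher and 40.4% as lower in ROBO1pos (edgeR quasi-likelihood test, Benjamini-Hochberg adjusted p under 0.05). For 8 of the 9 every library of one population lay beyond every library of the other, beside 71.9% of all tested genes. ALDH1A2, 1 of the 9, met the count filter only through its ROBO1pos libraries. Most member differences were small. Against a 1.5-fold threshold (edgeR glmTreat) 4 of the 9 passed, beside 41.8% of tested genes, and 2 of the 9 were called and at least 2-fold apart, beside 30.3% of tested genes, and the median absolute log2 fold change of the 9 was 0.31 against 0.58 over all tested genes. The median signed log2 fold change was 0.26 over the 9 members and 0.02 over all tested genes. Log2 fold changes are ROBO1pos minus ROBO1neg throughout.

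**Figure D1:**
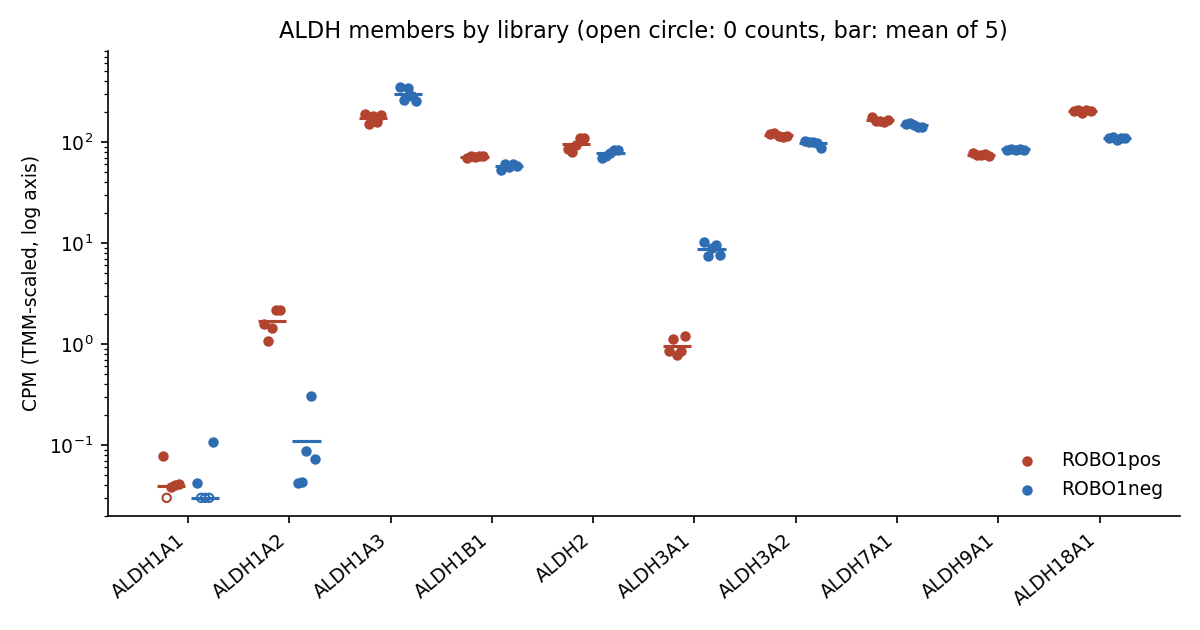
Level of each ALDH member in each library, in TMM-scaled CPM on a log axis, with 5 ROBO1pos libraries (red) left of 5 ROBO1neg libraries (blue), open circles for 0 counts and bars for means. ALDH1A1 stays at or below 0.108 CPM in every library, ALDH1A2 and ALDH3A1 separate in opposite directions at low levels, and the other members lie between 52.8 and 348 CPM.

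Among the retinal dehydrogenases ALDH1A3 carried nearly all of the reads. ALDH1A3 (chr15:100879831-100916626, GRCh38.p14) was at 190.0, 151, 179, 159 and 183 CPM in ROBO1pos, against 348, 258, 346, 285 and 256 CPM in ROBO1neg. Every ROBO1neg library lay above every ROBO1pos library, and within ROBO1neg replicates 1 and 3 stood above the other 3. The means were 172 ± 16.5 and 299 ± 45.5 CPM (SD, n = 5 each), a log2 fold change of -0.79 (SE 0.10, edgeR adjusted p = 2.8e-06). ALDH1A3 made up 19.1% ± 1.45 of the summed CPM of the 10 members in ROBO1pos and 33.8% ± 3.45 in ROBO1neg. An antisense transcript annotated by GENCODE, AC015712.2, shares 29.2% of the exon bases of ALDH1A3 and is not a row of the count tables. The strand setting of the counting is not given, so reads from it and from ALDH1A3 cannot be told apart.

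ALDH1A2 (chr15:57953429-58065711), the retinal dehydrogenase best known from the embryo, went the other way at far lower levels. It was at 1.59, 1.07, 1.43, 2.18 and 2.18 CPM in ROBO1pos, against 0.0425, 0.0431, 0.0868, 0.307 and 0.0721 CPM in ROBO1neg. In reads this was 29 to 54 counts per ROBO1pos library and 1 to 9 per ROBO1neg library, the 9 being in replicate 4. All ROBO1neg counts lay below the filter's minimum count of 10, so ALDH1A2 was tested only because of its ROBO1pos libraries. The groups did not overlap, with a log2 fold change of 3.79 (SE 0.40, edgeR adjusted p = 6.8e-07). Without ROBO1neg replicate 4 it was 4.66 (SE 0.39, edgeR adjusted p = 1.3e-07). The ratio of summed counts per gene total, 214 against 15, was 14.4 (95% exact binomial interval 8.52 to 26.1), and 27.6 (12.5 to 76.1) without that library, intervals that cover counting error only.

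ALDH1A1 (chr9:72900671-72953053) was at or near 0 in every library. ROBO1pos libraries held 2, 0, 1, 1 and 1 counts and ROBO1neg libraries 1, 0, 0, 0 and 3, which is 5 counts and 4 counts over the groups, so it was not tested. A count of 0 in a library of this depth allows a level of up to 0.102 to 0.129 CPM, taken as 3 counts of the gene total. With no filter beyond 1 count the fit gave a log2 fold change of 0.27 (SE 0.95, edgeR adjusted p = 0.816), so no difference was detectable at this depth. Summed over the 3 retinal dehydrogenases, the level was 174 ± 16.7 CPM in ROBO1pos and 299 ± 45.5 CPM in ROBO1neg.

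The genes that feed and read the retinoic acid step were measured as lists. Calls in each list here and below stand beside all tested genes, of which 82.0% passed, 41.6% higher and 40.4% lower in ROBO1pos. Of 13 tested genes of retinoid metabolism and transport, 6 were higher and 6 lower in ROBO1pos and 1 did not pass. The median log2 fold change of the list was -0.13. LRAT, which esterifies retinol for storage, was at 3.17 ± 0.373 CPM in ROBO1pos and 0.0465 ± 0.0325 CPM in ROBO1neg, where all 5 libraries together held 6 counts. SDR16C5, a retinol dehydrogenase, was at 36.4 ± 5.13 and 7.80 ± 1.22 CPM, and FABP5, a fatty acid binding protein that also binds retinoic acid, at 22.2 ± 1.89 and 7.88 ± 0.742 CPM. STRA6, the membrane receptor for the plasma retinol carrier, was higher in ROBO1pos too, at 557 ± 61.2 against 271 ± 9.24 CPM. CRABP2, which delivers retinoic acid to its receptors, was lower in ROBO1pos, at 51.8 ± 9.16 against 193 ± 7.99 CPM. RDH10, which oxidises retinol to retinal, averaged 10.6 ± 1.36 CPM in ROBO1pos and 11.6 ± 0.799 CPM in ROBO1neg (edgeR log2 fold change -0.13, SE 0.09, adjusted p = 0.213).

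The retinoic acid receptors differed by isotype. RARA was at 22.8 ± 1.48 CPM in ROBO1pos and 68.4 ± 5.45 CPM in ROBO1neg, and RARG at 21.9 ± 2.33 and 56.6 ± 5.99 CPM. RXRA, the partner of the RAR receptors, was at 35.1 ± 6.60 and 125 ± 4.81 CPM. RARB was higher in ROBO1pos, at 3.48 ± 1.23 against 0.819 ± 0.322 CPM (edgeR log2 fold change 2.09, SE 0.28, adjusted p = 7.5e-06). RXRB had 29 counts over the ROBO1pos libraries and 26 over the ROBO1neg libraries and RXRG had 0, so neither was tested.

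Of 11 tested genes described as responsive to retinoic acid, 9 were lower and 2 higher in ROBO1pos, with a median log2 fold change of -2.18. Over all tested genes 40.4% were lower and 41.6% higher, with a median of 0.02. CYP26A1, an enzyme that breaks down retinoic acid, was at 0.307 ± 0.0607 CPM in ROBO1pos and 11.6 ± 3.30 CPM in ROBO1neg (edgeR log2 fold change -5.22, SE 0.24, adjusted p = 8.8e-11). CYP26B1, in the retinoid metabolism list but not in this one, went the other way (edgeR log2 fold change 2.17, SE 0.22, adjusted p = 3.9e-07). It had 462 counts over ROBO1pos and 101 over ROBO1neg, and the groups did not overlap in CPM. TGM2, a transglutaminase, was at 22.3 ± 6.84 CPM in ROBO1pos and 4044.7 ± 873 CPM in ROBO1neg. RARB and STRA6 were the members of this list that were higher in ROBO1pos. CYP26A1, RARB, DHRS3, STRA6 and CRABP2 are in a second retinoid list, and TGM2 and ICAM1 also respond to other signals.

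**Figure D2:**
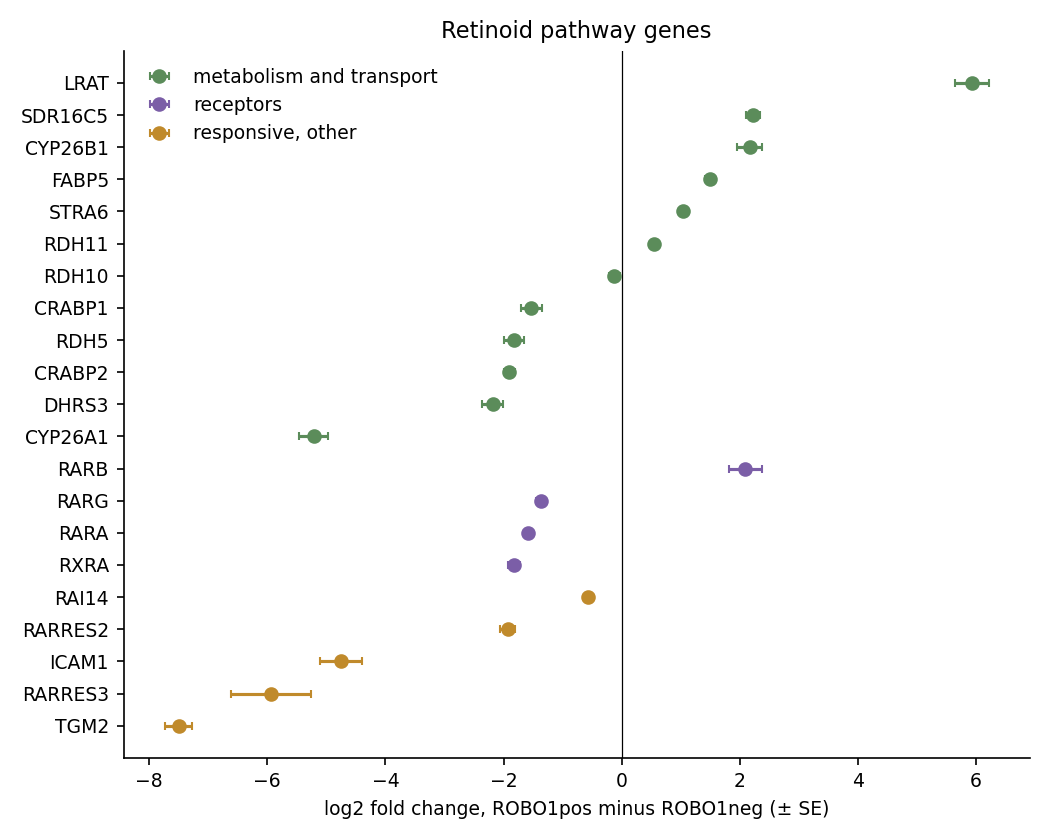
Log2 fold changes (ROBO1pos minus ROBO1neg, ± SE from the edgeR fit over 10 libraries) of tested genes of retinoid metabolism and transport, retinoic acid receptors and other retinoic acid responsive genes, as far as they are reported here. LRAT lies furthest to the right at 5.93, CYP26A1 (-5.22) and TGM2 (-7.50) lie far to the left, and RARB is the receptor on the right.

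The mitochondrial acetaldehyde enzymes were modestly higher in ROBO1pos. ALDH1B1 (chr9:38392702-38398661) was at 69.0, 72.6, 71.0, 72.4 and 73.0 CPM in ROBO1pos, against 52.8, 60.4, 56.3, 60.2 and 58.2 CPM in ROBO1neg, with no overlap (edgeR log2 fold change 0.31, SE 0.04, adjusted p = 9.7e-06). ALDH2 (chr12:111766933-111817532) was at 84.4, 79.0, 93.9, 110.5 and 109.6 CPM in ROBO1pos, against 69.8, 72.2, 76.9, 82.7 and 84.1 CPM in ROBO1neg. The groups overlapped, because ROBO1pos replicate 2 lay below ROBO1neg replicates 4 and 5. The log2 fold change of ALDH2 was 0.31 (SE 0.09, edgeR adjusted p = 0.0067). Of the alcohol dehydrogenases, ADH5 alone was tested, at 143 ± 9.65 CPM in ROBO1pos and 125 ± 7.22 CPM in ROBO1neg (edgeR log2 fold change 0.19, SE 0.05, adjusted p = 0.0046). ADH1A, ADH1B, ADH4 and ADH7 had 0 counts in every library, and ADH1C had 52 counts over ROBO1pos and 3 over ROBO1neg.

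ALDH3A1 and ALDH3A2 are neighbours on chromosome 17 and differed in opposite directions. ALDH3A1 (chr17:19737984-19748298), known for its high level in cornea and in some tumours, was at 0.851, 1.11, 0.775, 0.849 and 1.19 CPM in ROBO1pos, against 10.2, 7.49, 8.94, 9.49 and 7.68 CPM in ROBO1neg. The groups were far apart, at 20 to 30 counts per ROBO1pos library and 174 to 278 per ROBO1neg library, with a log2 fold change of -3.19 (SE 0.15, edgeR adjusted p = 9.4e-11). ALDH3A2 (chr17:19648136-19677596), the fatty aldehyde dehydrogenase lost in Sjögren-Larsson syndrome, was at 120.2, 122, 114, 113 and 115 CPM in ROBO1pos, against 102, 99.6, 99.6, 98.6 and 87.9 CPM in ROBO1neg. Every ROBO1pos library lay above every ROBO1neg library, and the log2 fold change was 0.26 (SE 0.05, edgeR adjusted p = 1.0e-04).

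ALDH3A1 is a known target of the aryl hydrocarbon receptor, AHR, and the genes listed for that pathway divided. The list includes AHR itself and its partner ARNT beside target genes. Of 7 tested, 2 were higher and 4 lower in ROBO1pos and 1 did not pass. AHRR, the receptor's repressor, was at 247 ± 27.5 CPM in ROBO1pos and 19.96 ± 8.40 CPM in ROBO1neg, and CYP1A1, its classical target, at 27.2 ± 12.9 and 2.86 ± 1.41 CPM. NQO1, a quinone reductase that is also induced through NRF2, was at 37.3 ± 3.04 and 375 ± 14.7 CPM, and CYP1B1 at 0.304 ± 0.0881 and 1.87 ± 0.645 CPM. TIPARP fell by 0.38 on the log2 scale (SE 0.09, edgeR adjusted p = 0.0015). The fourth, ARNT, the partner of AHR, fell by 0.11 (edgeR adjusted p = 0.029) and did not pass with upper quartile scaling (0.304), with library size only (0.062), without ROBO1pos replicate 2 (0.051) or 3 (0.065) or without ROBO1neg replicate 1 (0.070). AHR averaged 75.5 ± 6.43 CPM in ROBO1pos and 84.0 ± 11.3 CPM in ROBO1neg (edgeR adjusted p = 0.111), and passed as lower in ROBO1pos when ROBO1pos replicate 5 (edgeR adjusted p = 0.044) or ROBO1neg replicate 5 (0.017) was left out.

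Of 8 tested genes of sphingolipid and long-chain aldehyde metabolism, where ALDH3A2 acts, 6 were lower and 2 higher in ROBO1pos, with a median log2 fold change of -1.10. ADH5, 1 of the 2 higher, is also in the alcohol dehydrogenase list. SGPL1, the lyase that releases a fatty aldehyde from sphingosine phosphate, was at 87.1 ± 2.59 CPM in ROBO1pos and 285 ± 35.8 CPM in ROBO1neg. The kinases that make sphingosine phosphate went opposite ways, SPHK1 at 0.172 ± 0.0830 and 6.80 ± 0.776 CPM and SPHK2 at 42.5 ± 3.47 and 17.1 ± 0.789 CPM. ALDH3B1, also lower in this list, is given with the rest of the superfamily.

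ALDH18A1 differed most among the abundant members that were higher in ROBO1pos. ALDH18A1 (chr10:95605941-95656711) was at 204, 205, 194, 208 and 201 CPM in ROBO1pos, against 109.7, 112, 105, 109 and 109 CPM in ROBO1neg. Replicates of each group lay within a narrow band, and the bands were far apart. The means were 202 ± 5.22 and 109 ± 2.57 CPM, a log2 fold change of 0.89 (SE 0.04, edgeR adjusted p = 2.0e-11).

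The enzyme that follows it in proline synthesis was higher in ROBO1pos too. PYCR1, which reduces pyrroline-5-carboxylate to proline in mitochondria, was at 268 ± 15.4 CPM in ROBO1pos and 108 ± 18.0 CPM in ROBO1neg (edgeR log2 fold change 1.32, SE 0.09, adjusted p = 8.9e-09). ALDH4A1, which runs the opposite way by oxidising the same intermediate to glutamate, was at 91.8 ± 9.71 and 46.9 ± 5.20 CPM. Of 8 tested genes of proline and ornithine metabolism, 4 were higher and 1 lower in ROBO1pos and 3 did not pass. The median log2 fold change of the list was 0.16. PRODH2, a hydroxyproline dehydrogenase, was higher at 0.885 ± 0.485 against 0.0535 ± 0.0275 CPM. PRODH, the proline dehydrogenase, was lower at 0.338 ± 0.136 against 0.606 ± 0.188 CPM (edgeR adjusted p = 0.022), a call that was lost without ROBO1pos replicate 3 (edgeR adjusted p = 0.056) or ROBO1neg replicate 3 (0.066). Ornithine aminotransferase (OAT) averaged 172 ± 6.89 CPM in ROBO1pos and 173 ± 7.52 CPM in ROBO1neg (log2 fold change -0.01, SE 0.04), and did not pass.

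ALDH7A1 and ALDH9A1 differed by the smallest amounts, in opposite directions. ALDH7A1 (chr5:126541841-126595219), antiquitin, whose loss causes pyridoxine-dependent epilepsy, was at 177, 163, 162, 156 and 166 CPM in ROBO1pos, against 151, 153, 147, 139.9 and 141 CPM in ROBO1neg. The lowest ROBO1pos library was above the highest ROBO1neg library by a few CPM, and the log2 fold change was 0.17 (SE 0.04, edgeR adjusted p = 0.0020). GENCODE names 4 processed pseudogenes of ALDH7A1, and 7.12% of the 50-base stretches of its longest transcript recur in 1 of them, so reads from such stretches are uncertain. ALDH9A1 (chr1:165662216-165698562) was at 77.7, 74.2, 73.5, 75.9 and 72.7 CPM in ROBO1pos, against 82.6, 85.4, 84.2, 85.4 and 83.7 CPM in ROBO1neg. All ROBO1neg libraries lay higher, with a log2 fold change of -0.17 (SE 0.03, edgeR adjusted p = 3.3e-04).

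Around ALDH7A1 in lysine breakdown, 4 of 6 tested genes were higher and 2 lower in ROBO1pos. AASS, the bifunctional enzyme that opens the saccharopine route, was at 15.9 ± 1.57 CPM in ROBO1pos and 86.3 ± 6.16 CPM in ROBO1neg (edgeR log2 fold change -2.44, SE 0.07, adjusted p = 1.0e-12). PIPOX, a pipecolate oxidase, was at 1.36 ± 0.313 and 0.0504 ± 0.0480 CPM, on 6 counts over ROBO1neg (log2 fold change 4.70, and 5.33 without ROBO1neg replicate 3). AADAT was at 24.4 ± 0.922 and 15.4 ± 1.69 CPM and DHTKD1 at 73.3 ± 3.17 and 61.8 ± 2.05 CPM. DLST, with a log2 fold change of -0.10 (edgeR adjusted p = 0.023), did not pass with upper quartile scaling (edgeR adjusted p = 0.358), with library size only (0.057), without ROBO1pos replicate 3 (0.053) or without ROBO1neg replicate 4 (0.061).

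Among genes of carnitine and GABA metabolism, where ALDH9A1 acts, 1 of 7 tested was higher and 3 lower in ROBO1pos and 3 did not pass. The median log2 fold change of the list was -0.08. The gene that was higher was ALDH5A1, succinate semialdehyde dehydrogenase. TMLHE, the first enzyme of carnitine synthesis, missed the threshold (edgeR adjusted p = 0.086) but passed as higher with upper quartile scaling (0.021) or without ROBO1neg replicate 2 (0.024). MAOB, a monoamine oxidase that produces aldehydes, was at 32.7 ± 4.54 CPM in ROBO1pos and 86.9 ± 13.7 CPM in ROBO1neg, and MAOA at 4.44 ± 0.404 and 6.92 ± 2.14 CPM. ABAT, the GABA transaminase, averaged 12.0 ± 1.63 and 37.9 ± 24.8 CPM, with ROBO1neg libraries between 13.3 and 64.5 CPM that overlapped ROBO1pos (edgeR adjusted p = 0.0012). BBOX1, the last enzyme of carnitine synthesis, had 1 count over all ROBO1pos libraries and 0 over ROBO1neg.

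**Figure D3:**
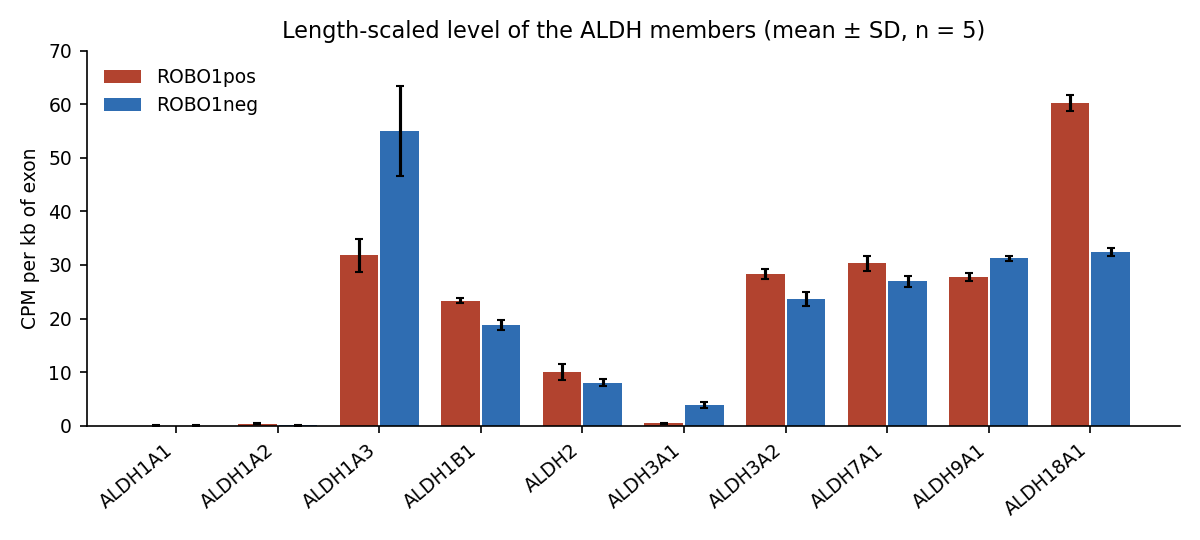
Mean level of each ALDH member in CPM per kilobase of merged exon, with ROBO1pos (red) left of ROBO1neg (blue) and bars of 1 SD over 5 libraries each. ALDH18A1 is the tallest bar in ROBO1pos at 60.3 and ALDH1A3 in ROBO1neg at 55.1, and ALDH1A1 and ALDH1A2 are close to 0.

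Levels of different genes were compared per kilobase of merged exon in the GENCODE release 29 basic annotation of GRCh38. In ROBO1pos ALDH18A1 stood first at 60.3 ± 1.55 CPM per kb, apart from ALDH1A3 at 31.8 ± 3.04 CPM per kb. ALDH1A3, ALDH7A1 (30.3 ± 1.38), ALDH3A2 (28.3 ± 0.914) and ALDH9A1 (27.7 ± 0.735) followed in an order in which neighbours overlapped between libraries. In ROBO1neg ALDH1A3 stood first at 55.1 ± 8.38 CPM per kb, apart from ALDH18A1 at 32.5 ± 0.764 CPM per kb, which overlapped ALDH9A1 at 31.3 ± 0.445 CPM per kb. ALDH1B1 and ALDH2 followed in that order in both populations on this scale, and ALDH3A1, ALDH1A2 and ALDH1A1 last. The order depends on the length used, and the gene models behind the counts are not known. Per kilobase of coding sequence ALDH1A3 was at 99.0 ± 9.47 CPM in ROBO1pos, where it overlapped ALDH7A1 at 98.4 ± 4.49, and at 171 ± 26.1 CPM in ROBO1neg, where it stood apart from ALDH7A1 at 87.4 ± 3.46. ALDH18A1, at 84.9 ± 2.19 CPM per coding kb in ROBO1pos and 45.7 ± 1.08 in ROBO1neg, ranked 3 and 6 of the 10 members. ALDH2 and ALDH1B1 changed places, ALDH2 at 61.6 ± 9.25 and 49.7 ± 4.06 and ALDH1B1 at 46.2 ± 1.04 and 37.1 ± 2.01 CPM per coding kb. The exons of ALDH2 span 9604 bases, of which 1551 are coding. The summed CPM of the 10 members was 901 ± 23.6 in ROBO1pos and 879 ± 44.5 in ROBO1neg, with overlapping ranges, but without ALDH1A3 it was 728 ± 13.4 and 581 ± 7.36 CPM with none. Without ALDH18A1 the sum went the other way, at 699 ± 24.5 and 770 ± 45.9 CPM, with overlapping ranges. The direction of the sum thus depends on the gene left out, and the sums were not tested.

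The remaining 9 genes of the superfamily had a median absolute log2 fold change of 1.31 over the 8 tested. This is a description beside 0.58 over all tested genes and 0.31 over the members. Of these 8, 5 were higher and 3 lower in ROBO1pos, and 4 were called and at least 2-fold apart. Over all tested genes 82.0% were called, and 30.3% were called and at least 2-fold apart. ALDH3B1, which oxidises lipid aldehydes at membranes, was at 1.95 ± 0.356 CPM in ROBO1pos and 29.2 ± 4.93 CPM in ROBO1neg (edgeR log2 fold change -3.90, SE 0.15, adjusted p = 1.1e-11), so that the ALDH3 family genes ALDH3A1 and ALDH3B1 were lower and ALDH3A2 higher in ROBO1pos. The formyltetrahydrofolate dehydrogenases went opposite ways, the mitochondrial ALDH1L2 at 20.8 ± 1.71 and 2.49 ± 0.484 CPM and the cytosolic ALDH1L1 at 4.33 ± 0.586 and 13.6 ± 1.243 CPM. ALDH5A1 was at 69.6 ± 5.997 and 38.9 ± 1.13 CPM, ALDH8A1 at 0.755 ± 0.183 and 0.0982 ± 0.0738 CPM, and ALDH16A1 at 63.5 ± 6.52 and 50.8 ± 2.81 CPM. ALDH8A1 met the count filter only through its ROBO1pos libraries, with 14 to 28 counts each against 1 to 5 in ROBO1neg. ALDH6A1 averaged 47.6 ± 3.25 and 55.4 ± 5.72 CPM (edgeR adjusted p = 0.010), a call lost with upper quartile scaling (edgeR adjusted p = 0.054). ALDH3B2 had 0 counts in every library. The exons of ALDH4A1 share 42.6% of their bases with a read-through gene of GENCODE, AL080251.1, which is not a row of the count tables.

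**Figure D4:**
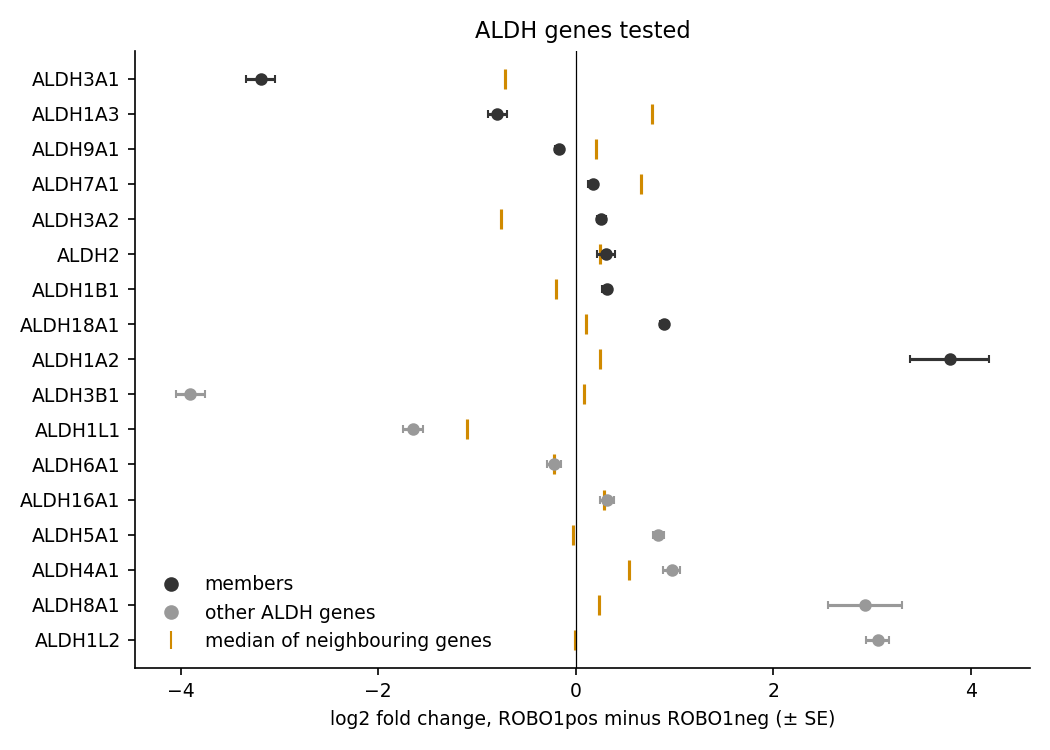
Log2 fold changes (ROBO1pos minus ROBO1neg, ± SE from the edgeR fit over 10 libraries) of the 9 tested members (black) and 8 other ALDH genes (grey), with the median of up to 20 tested neighbours on each side of the chromosome as an orange tick. ALDH1A3 at -0.79 lies opposite its neighbours' 0.78, and ALDH3A2 at 0.26 opposite its neighbours' -0.76.

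Each member was also set beside its chromosomal surroundings, taken as up to 20 tested genes on either side and summarised by their median log2 fold change. ALDH1A3 lies near the end of chromosome 15, where 24 of its 29 available neighbours were higher in ROBO1pos and 1 was lower. Their median was 0.78, and the flanking genes ASB7 and LRRK1 were at 0.44 and 1.01, whereas ALDH1A3 itself was at -0.79. ALDH3A2 was at 0.26 in a stretch with a median of -0.76, where 29 of 40 neighbours were lower, and ALDH3A1, beside it, was at -3.19. ALDH7A1 was at 0.17 with a neighbour median of 0.66, so its value relative to them was -0.49, the reverse of its own sign. ALDH2 was at 0.31 beside 0.25 for its neighbours, a remainder of 0.06. ALDH18A1 and ALDH1A2 had neighbour medians of 0.10 and 0.25 and kept 0.79 and 3.54 after subtraction. ALDH1B1 and ALDH9A1 were at 0.51 and -0.38 after it. ALDH1A1 lies between ZFAND5 and ANXA1, in a stretch with a median of -0.86. These differences are values with no test, and copy number was not measured here.

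For ALDH1A2, the member with the largest absolute log2 fold change, the tested genes with the most similar profile over the 10 libraries were CFHR3, CALCRL, GAREM, IGSF11 and CCAT1. Likeness was the root mean square difference of centred log2 CPM, which was 0.28 for CFHR3 and 0.40 for CCAT1. GAREM averaged 13.2 CPM in ROBO1pos and 1.28 CPM in ROBO1neg, and CCAT1 3.95 and 0.328 CPM, while the other 3 stayed below 1 CPM on average in either population. In ROBO1neg CFHR3, CALCRL and IGSF11 averaged 0.0136, 0.00682 and 0.0223 CPM. Their log2 fold changes were 5.43, 6.21 and 4.85, beside 3.79 for ALDH1A2, 3.35 for GAREM and 3.53 for CCAT1. The log2 CPM used a prior count of 2, which narrows differences near 0.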

How the data were processed

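The authors deposited 1 table per library of raw counts of reads per gene, not normalised. Tools named in the submitters' processing notes were bcl2fastq, FastQC, the aligner STAR 2.6.0c, SAMtools 1.9 and the authors' own DESeq2 1.24.0, on build GRCh38. Not given in the sources used here were the read counter, its strandedness and the gene models. Per the labels' protocols a stranded kit for polyadenylated RNA was used. Entries that name no gene (41.3% of reads listed in ROBO1pos and 36.6% in ROBO1neg) were left out.

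Counts were fitted with edgeR 4.0.16 in R 4.3.3 (filterByExpr, TMM, quasi-likelihood F test, group as the only term, Benjamini-Hochberg over 14932 genes, threshold 0.05). Standard errors come from the coefficient and its F statistic. The fit was tested on simulated counts with known changes. Counts of within-group pairs of libraries differed by 3.49 to 21.5 times the sampling variance per degree of freedom, so none was a duplicate.

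RefSeq positions (GRCh38.p14) matched 13665 tested genes on the symbol and 942 on a former one, and exon lengths came from GENCODE release 29. The alternatives were RLE, upper quartile and no scaling, 2 other filters, DESeq2 1.42.0, limma-voom 3.58.1, a test against 1.5-fold, a replicate block, each library left out, and subtraction of the neighbours' median. The members and lists were chosen with earlier results of these data known. Named genes were the members, the other ALDH genes, the receptors, flanking genes and the 5 most similar profiles. Up to 3 called genes per direction and list were also named, by smallest adjusted p. RDH10, STRA6, CYP26B1, OAT, AHR, ARNT, ICAM1, TMLHE, BBOX1 and untested genes were added after their values were seen. A few list genes enter the counts but are not reported here by name.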

Additional observations from a re-analysis of the deposited data

Results flagged for a closer look

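In 2 of 38 groups of 5 libraries tested, 1 library stood apart from the others by Dixon's criterion, about the number that chance gives at 1 in 20. ALDH1A2 was at 0.307 CPM in ROBO1neg replicate 4, on 9 counts, against 0.0425 to 0.0868 CPM in the other ROBO1neg libraries. ALDH3A2 was at 87.9 CPM in ROBO1neg replicate 5, on 2439 counts, against 98.6 to 102 CPM in the other ROBO1neg libraries.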

How the results depend on the processing

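The counts of 6 members called higher and 3 called lower in ROBO1pos were the same under RLE, upper quartile and no scaling, both other filters on the members still tested, DESeq2, limma-voom, the replicate block and each library left out, except where noted here. With at least 5 CPM in 5 libraries ALDH1A2 was no longer tested, which left 5 higher. Against a 1.5-fold change 2 members (ALDH1A2 and ALDH18A1) were higher, and ALDH1B1, ALDH2, ALDH3A2, ALDH7A1 and ALDH9A1 no longer passed. Over all genes that test called 2938 higher and 3298 lower. ALDH6A1 no longer passed with upper quartile scaling. Subtraction of the neighbours' median turned ALDH7A1 to -0.49 and ALDH6A1 to 3.2e-04. Over the tested alternatives ALDH2 ranged from 0.25 to 0.37, ALDH7A1 from 0.14 to 0.23 and ALDH9A1 from -0.19 to -0.11 on the log2 scale. Replicate numbers are not said to pair samples, so the replicate block was kept as an alternative. Replicates sharing a number correlated at 0.062 to 0.169 over the 5 numbers after group means were removed. As a hint of pairing, 8 of the 10 libraries matched their own number best, so whether replicates are paired is not settled. With the replicate block the ALDH2 log2 fold change was 0.30 (SE 0.05, edgeR adjusted p = 9.4e-05). With the replicate block 6226 genes were higher and 6086 lower, against 6214 and 6036 without it. Depth limits ALDH1A1, ALDH1A2 and ALDH8A1, which had at most 15 counts over the 5 ROBO1neg libraries. The cause of these changes was not tested.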
